A study of Mus musculus with 6 samples.

Results

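The 10 genes of branched-chain amino acid breakdown examined here in visceral fat were Bcat2, Bckdha, Bckdhb, Dbt, Dld, Bckdk, Ppm1k, Ivd, Mccc1 and Mccc2. They were listed by name as enzymes of the pathway and its control, though earlier results of these data were known. All 10 were found among the 46603 gene identifiers counted. RNA was sequenced from the visceral adipose tissue of untreated C57/Bl6 mice aged 18 months, with 3 libraries from NM1 KO mice, which lack nuclear myosin 1, and 3 libraries from wild-type (WT) mice. Nuclear myosin 1 is a nuclear isoform of the motor protein encoded by Myo1c, with roles in transcription and chromatin. The labels give neither the allele nor the sex, and they do not say that the 3 libraries of a genotype are 3 mice. The p-values therefore rest on the spread between these libraries, and that spread may be technical.

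Leucine, isoleucine and valine are essential amino acids that share the first steps of their breakdown in mitochondria. A transaminase removes the amino group, and the branched-chain ketoacid dehydrogenase complex (BCKDH) then releases carbon dioxide and joins the remainder to coenzyme A, in a step that commits the carbon to breakdown. A kinase switches the complex off and a phosphatase switches it on. In fat cells the pathway is induced as the cells form, and its carbon can enter fatty acids.

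The data are read counts per gene, given here as CPM, a gene's count relative to the library total after scaling by TMM size factors. Total counts lay between 27525446 and 33537818 in NM1 KO and between 24677758 and 31228723 in WT. Each log2 fold change is the NM1 KO level over the WT level, followed by its SE. Calls required an adjusted p under 0.05 in the quasi-likelihood test of edgeR, adjusted over every tested gene. Of 15828 genes tested, 673 were called, which is 4.25%, with 441 (2.79%) higher and 232 (1.47%) lower in NM1 KO. Myo1c itself had 452, 697 and 551 CPM in NM1 KO replicates 1 to 3, against 801, 759 and 801 CPM in WT replicates 1 to 3 (log2 -0.47 ± 0.17, adjusted p = 0.151), and since its count covers every isoform it does not check the knockout. The libraries differed in how expression followed GC content: the Spearman rho of a gene's deviation from its mean with its GC content, across protein-coding genes, was -0.430, 0.239 and -0.457 in NM1 KO replicates 1 to 3, and 0.349, 0.258 and 0.145 in WT replicates 1 to 3. Among the NM1 KO libraries, only replicate 2 had a positive rho, as all 3 WT libraries did.

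Bckdhb, the beta subunit of the BCKDH decarboxylase, fell by 31.5% in NM1 KO and was the only member called. Bcat2, the mitochondrial transaminase, and Ivd, the first enzyme of the leucine branch, had means of similar relative size below WT without passing the test. Bckdha and Bckdk were lower in every NM1 KO library than in any WT library, by smaller amounts. The groups overlapped for Dbt, Dld, Ppm1k, Mccc1 and Mccc2. In all, 1 of 10 members was called, lower, where 4.25% of all genes were called and 1.47% were called lower; all 10 passed the filter on low counts, and the median log2 fold change of the members was -0.20, beside -0.0021 for all genes tested. The CPM ranges lay apart for 5 of 10 members, each with NM1 KO lower, and for 29.9% of all genes tested (15.0% lower and 14.9% higher). An unadjusted p under 0.05 was found for 4 of 10 members, each lower, and for 23.7% of all genes tested, with 10.8% lower. With 10 members, 1 call is too few to set apart from the background.

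Promoter sequences are shown for Bckdhb, the member that was called, and for Bcat2, the first enzyme. The sequence of Mccc2 is also shown, the only one of the 9 members with a matched promoter that held an E-box. The sequences are the 250 bases before the RefSeq transcription start on GRCm38.p6, written 5′ to 3′ on the gene's strand. Capitals mark a CCAAT box (CCAAT, or ATTGG on the other strand) or an E-box (CACGTG, its own reverse complement). RefSeq lists 2 starts for Bckdhb and 2 for Bcat2, and the start nearest the annotated gene start was used.
Bckdhb, chr9:83924887-83925136, plus strand: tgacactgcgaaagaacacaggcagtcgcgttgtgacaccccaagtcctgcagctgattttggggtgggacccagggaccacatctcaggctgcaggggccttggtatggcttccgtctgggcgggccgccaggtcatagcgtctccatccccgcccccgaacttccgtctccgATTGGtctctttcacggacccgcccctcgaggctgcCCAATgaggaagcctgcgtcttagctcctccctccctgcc
Bcat2, chr7:45569903-45570152, plus strand: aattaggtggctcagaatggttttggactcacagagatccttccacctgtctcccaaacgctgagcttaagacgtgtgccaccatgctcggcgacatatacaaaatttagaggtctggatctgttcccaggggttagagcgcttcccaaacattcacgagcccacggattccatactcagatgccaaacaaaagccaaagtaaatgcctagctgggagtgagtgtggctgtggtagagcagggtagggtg
Mccc2, chr13:100015640-100015889, minus strand: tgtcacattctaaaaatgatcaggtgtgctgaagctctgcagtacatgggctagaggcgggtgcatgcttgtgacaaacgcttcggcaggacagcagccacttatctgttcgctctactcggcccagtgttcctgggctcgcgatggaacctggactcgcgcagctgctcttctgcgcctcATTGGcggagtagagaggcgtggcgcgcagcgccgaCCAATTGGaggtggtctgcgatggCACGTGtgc
The Bckdhb window held 2 CCAAT boxes and no E-box, the Bcat2 window held neither, and the Mccc2 window held 3 CCAAT boxes and 1 E-box. RefSeq promoters were matched for 9 of 10 members, of which 7 held a CCAAT box and 1 an E-box. Among 11469 promoters of the genes tested here, 35.9% held a CCAAT box and 8.13% an E-box, while of 27025 RefSeq promoters 34.5% held a CCAAT box and 6.05% an E-box. These shares used the first start listed for each gene. In the Mccc2 window 1 pair of CCAAT matches, on opposite strands, shares bases, and no other matches in the members' windows overlap. A match describes letters only.

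**Figure D1:**
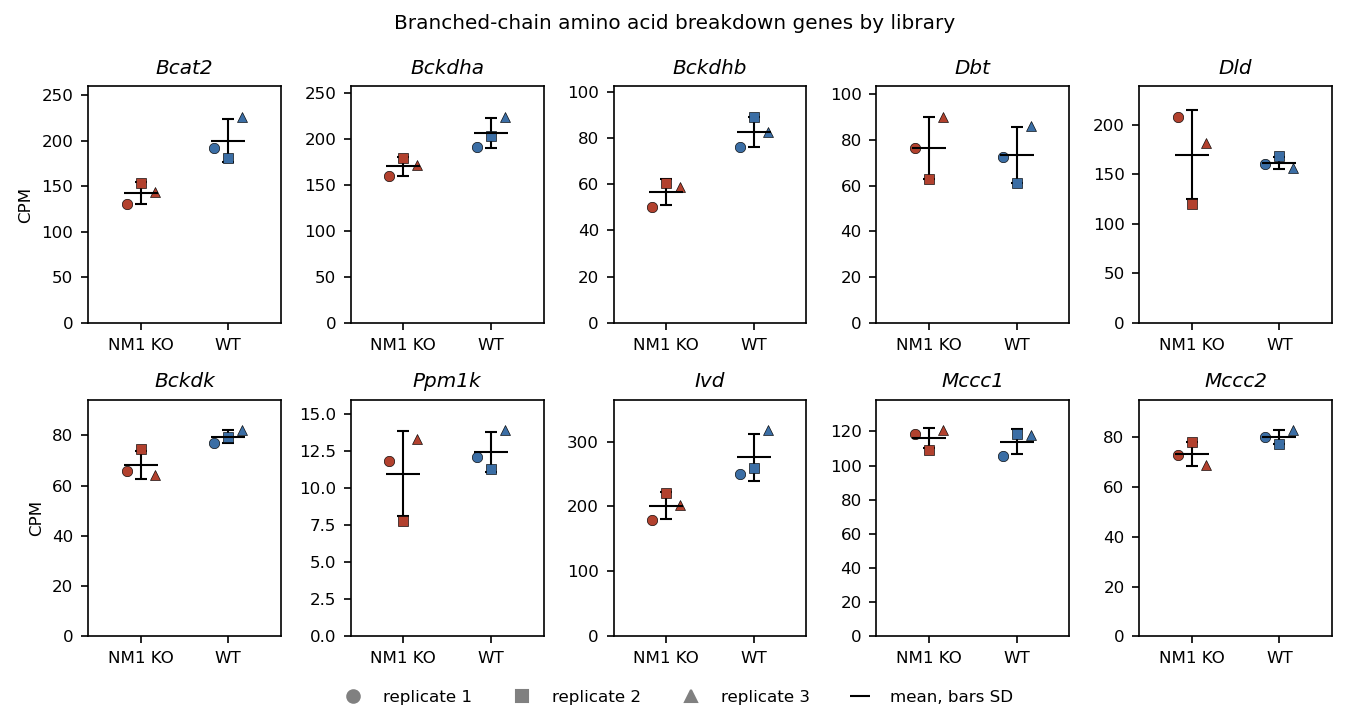
CPM of the 10 members in each library, with NM1 KO on the left and WT on the right of each panel; points are libraries, lines are means and bars are SD (n = 3 each), and each axis starts at 0. Bcat2, Bckdha, Bckdhb, Bckdk and Ivd have every NM1 KO library below every WT library, and NM1 KO replicate 2 is the lowest of all libraries for Dld and Ppm1k.

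Bcat2 (ENSMUSG00000030826, chromosome 7, 45570153 to 45589711 on GRCm38) moves the amino group of all of these amino acids to alpha-ketoglutarate inside mitochondria. It had 130, 154 and 144 CPM in NM1 KO replicates 1 to 3, against 193, 181 and 226 CPM in WT replicates 1 to 3. The groups did not overlap, and WT replicate 3 was highest. The means were 143 ± 12.0 CPM in NM1 KO and 200 ± 23.4 CPM in WT (SD, n = 3 each), with a log2 fold change of -0.49 ± 0.12 (95% interval -0.78 to -0.20, adjusted p = 0.0712), so Bcat2 was not called. It was called by DESeq2 (adjusted p = 0.0129), which called 12.9% of the genes it tested, and by limma-voom (adjusted p = 0.0283), which called 10.4%.

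The BCKDH complex joins a decarboxylase of alpha and beta subunits (Bckdha, Bckdhb), a transacylase core (Dbt) and a dihydrolipoamide dehydrogenase (Dld) that other ketoacid dehydrogenase complexes share. Bckdhb (ENSMUSG00000032263, chromosome 9, 83925145 to 84124240) had 50.0, 60.5 and 59.0 CPM in NM1 KO replicates 1 to 3, against 76.0, 89.2 and 82.5 CPM in WT replicates 1 to 3, from 1554 to 1981 counts in NM1 KO and 2055 to 2789 counts in WT. The highest NM1 KO library was below the lowest WT library. Bckdhb fell by 0.55 ± 0.12 on the log2 scale (95% interval -0.82 to -0.27, adjusted p = 0.0490). The call lay close to the threshold. It was lost without WT replicate 1 (adjusted p = 0.0955), WT replicate 2 (0.127), WT replicate 3 (0.154), NM1 KO replicate 1 (0.133) or NM1 KO replicate 3 (0.125), and it was kept without NM1 KO replicate 2 (0.0377), where the same removals left 37, 4, 1, 244, 5 and 1654 calls over all genes. The log2 fold change stayed between -0.60 and -0.45 over these removals.

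Bckdha (chromosome 7, 25629946 to 25658981) had 159, 179 and 171 CPM in NM1 KO replicates 1 to 3, against 192, 203 and 224 CPM in WT replicates 1 to 3. These ranges did not overlap, but the difference did not pass the test (log2 -0.28 ± 0.11, 95% interval -0.53 to -0.030, adjusted p = 0.171). On GRCm38, 61.7% of the exonic bases of Bckdha are also exonic in B3gnt8 on the opposite strand, and whether the counting used strand is not stated in the labels, so the level of Bckdha is uncertain. B3gnt8 itself had 8.09 to 13.2 CPM in NM1 KO and 5.82 to 9.21 CPM in WT.

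Dbt (chromosome 3, 116513070 to 116549981) had 76.4, 63.0 and 90.1 CPM in NM1 KO replicates 1 to 3, against 72.6, 61.3 and 85.9 CPM in WT replicates 1 to 3. The groups covered almost the same range, and the log2 fold change was 0.062 ± 0.17 (95% interval -0.35 to 0.47, adjusted p = 0.861). Dld (chromosome 12, 31331277 to 31351453) had 208, 120 and 181 CPM in NM1 KO replicates 1 to 3, against 160, 168 and 156 CPM in WT replicates 1 to 3. NM1 KO replicate 2 lay below and NM1 KO replicates 1 and 3 above all WT libraries, so the SD was 45.0 CPM in NM1 KO and 6.12 CPM in WT. The log2 fold change of Dld was 0.072 ± 0.19 (95% interval -0.39 to 0.53), and its sign turned without NM1 KO replicate 1 (log2 -0.083).

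Ratios between partner transcripts do not depend on how libraries are scaled. GC trends of the libraries remain in them where the partners differ in GC content. As counted, the log2 fold changes were 0.062 for Dbt (GC 42.1%), -0.28 for Bckdha (57.9%) and -0.55 for Bckdhb (50.3%). With the GC and length trends removed they were -0.080, -0.070 and -0.53. Per exonic length, the Bckdhb to Bckdha ratio was 0.330, 0.355 and 0.362 in NM1 KO replicates 1 to 3, against 0.417, 0.462 and 0.388 in WT replicates 1 to 3. The Bckdhb transcript was therefore lower relative to that of Bckdha in every NM1 KO library than in any WT library. The overlap with B3gnt8 applies to the denominator. The Dbt to Bckdha ratio was 0.257 ± 0.0509 in NM1 KO and 0.201 ± 0.0260 in WT (SD, n = 3 each), and the Dld to Dbt ratio was 2.01 ± 0.402 in NM1 KO and 2.05 ± 0.422 in WT. The groups overlapped for both of these. No test was made of the ratios, and the GC limit also applies to the Bckdk to Ppm1k and Mccc2 to Mccc1 ratios given below.

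The control of the complex rests on the kinase Bckdk, which phosphorylates the alpha subunit and inactivates the complex, and on Ppm1k, the mitochondrial phosphatase that reactivates it. Bckdk (chromosome 7, 127904082 to 127910221) had 65.8, 74.4 and 64.1 CPM in NM1 KO replicates 1 to 3, against 76.8, 79.3 and 81.9 CPM in WT replicates 1 to 3. Its groups did not overlap, the gap between them was small, and it was not called (log2 -0.22 ± 0.10, 95% interval -0.46 to 0.014, adjusted p = 0.235). Ppm1k (chromosome 6, 57506502 to 57535468) was the lowest of the 10, with 11.8, 7.78 and 13.3 CPM in NM1 KO replicates 1 to 3, against 12.1, 11.3 and 13.9 CPM in WT replicates 1 to 3. NM1 KO replicate 2, with 255 counts, was the lowest library, and without it the log2 fold change was 0.015 in place of -0.18 ± 0.22 (95% interval -0.70 to 0.34). The Bckdk to Ppm1k ratio per length was 9.08, 15.6 and 7.87 in NM1 KO replicates 1 to 3, against 10.4, 11.5 and 9.63 in WT replicates 1 to 3. It was above all WT values in NM1 KO replicate 2 and below them in NM1 KO replicates 1 and 3.

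In the leucine branch, Ivd oxidizes isovaleryl-CoA, and Mccc1 and Mccc2 are the biotin-carrying and the catalytic subunit of methylcrotonyl-CoA carboxylase, which acts next. Ivd (ENSMUSG00000027332, chromosome 2, 118861954 to 118882909) had 180, 221 and 203 CPM in NM1 KO replicates 1 to 3, against 250, 260 and 317 CPM in WT replicates 1 to 3. The groups did not overlap, and WT replicate 3 was again highest. The log2 fold change was -0.46 ± 0.13 (95% interval -0.77 to -0.14, adjusted p = 0.102), so Ivd was not called, while DESeq2 (adjusted p = 0.0363) and limma-voom (adjusted p = 0.0489) called it.

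Mccc1 (chromosome 3, 35959312 to 36000678) had 118, 109 and 121 CPM in NM1 KO replicates 1 to 3, against 106, 118 and 118 CPM in WT replicates 1 to 3. The values interleaved, and the log2 fold change was 0.027 ± 0.099 (95% interval -0.20 to 0.26). Mccc2 (chromosome 13, 99948530 to 100015639) had 72.9, 78.0 and 68.7 CPM in NM1 KO replicates 1 to 3, against 79.9, 77.4 and 82.7 CPM in WT replicates 1 to 3. NM1 KO replicate 2 lay above the lowest WT library, and the log2 fold change was -0.13 ± 0.096 (95% interval -0.35 to 0.096). The Mccc2 to Mccc1 ratio per length was 2.41, 2.79 and 2.23 in NM1 KO replicates 1 to 3, against 2.96, 2.55 and 2.74 in WT replicates 1 to 3, which overlap. As ratios of NM1 KO to WT, the 95% intervals ran from 0.868 to 1.20 for Mccc1 and from 0.783 to 1.07 for Mccc2. Those of the other members whose groups overlapped were wider, at 0.787 to 1.39 for Dbt, 0.766 to 1.44 for Dld and 0.614 to 1.27 for Ppm1k.

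**Figure D2:**
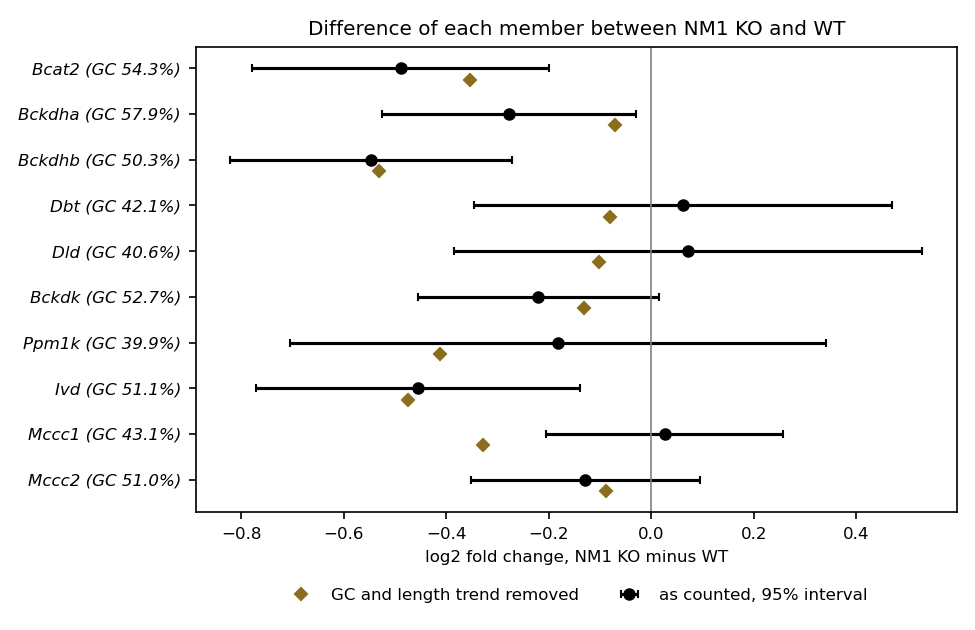
Log2 fold change of each member (NM1 KO minus WT) on the horizontal axis; black points are the counts as deposited with 95% intervals, and brown diamonds are the same values with the GC and length trends of the libraries removed. Bckdhb and Ivd hardly move (-0.55 and -0.53 for Bckdhb), Bckdha moves close to 0, and Ppm1k moves from -0.18 to -0.41. Dbt, Dld and Mccc1 turn to the negative side, so every diamond lies below 0, with only Bckdhb called.

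The members differ in base composition. The 5 members whose ranges lay apart had GC contents of 54.3% (Bcat2), 57.9% (Bckdha), 50.3% (Bckdhb), 52.7% (Bckdk) and 51.1% (Ivd), and Mccc2, whose ranges overlapped, had 51.0%. The other 4 had 42.1% (Dbt), 40.6% (Dld), 39.9% (Ppm1k) and 43.1% (Mccc1). After removal of the GC and length trends of the libraries, when 4.51% of genes were called, Bckdhb kept its call (log2 -0.53, adjusted p = 0.0350), Ivd stood at -0.47 (adjusted p = 0.0825) and Bcat2 at -0.35 (adjusted p = 0.132). Bckdha stood at -0.070 (adjusted p = 0.735), Bckdk at -0.13, Ppm1k at -0.41 and Mccc1 at -0.33 (adjusted p = 0.202), none of them called.

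Levels were set against each other per length, as TPM from the summed exonic length of each gene. With this length Bckdha was highest, at 291 ± 17.2 TPM in NM1 KO and 345 ± 22.0 TPM in WT (SD, n = 3 each). In WT it was followed by Bcat2 (163 ± 18.9 TPM), Ivd (159 ± 18.9 TPM), Bckdhb (145 ± 7.53 TPM) and Dld (139 ± 5.31 TPM), of which each overlapped its neighbour. In NM1 KO, Dld came second (150 ± 39.9 TPM), followed by Bcat2 (119 TPM, 108 to 128), Ivd (119 ± 12.1 TPM) and Bckdhb (102 ± 10.4 TPM). Mccc2 (84.9 ± 4.92 TPM in NM1 KO and 90.8 ± 4.40 TPM in WT), Dbt (74.3 ± 13.6 TPM in NM1 KO and 69.6 ± 11.9 TPM in WT) and Bckdk (59.9 ± 4.58 TPM in NM1 KO and 68.2 ± 1.47 TPM in WT) came next, and the WT ranges of Dbt and Bckdk overlapped. Ppm1k was last, at 5.91 ± 1.56 TPM in NM1 KO and 6.55 ± 0.707 TPM in WT. The order depends on the length used. Over principal transcripts, a length chosen after seeing the data, 7 of 10 members took another place in WT. Only the members' own lengths were changed there, while the library sum still used exonic lengths, so these values are not TPM. On that scale Bcat2, at 262 ± 22.1 in NM1 KO and 359 ± 41.6 in WT, overlapped Bckdha in WT. Mccc1 stood at 34.4 ± 1.96 TPM in NM1 KO and 33.0 ± 1.14 TPM in WT over its 10952 exonic bases. Over the 2455 bases of its principal transcript, on the changed scale, it stood at 154 ± 8.74 in NM1 KO and 147 ± 5.07 in WT.

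Most further genes of the pathway were not called. Of 42 listed, 41 were tested, 1 was called higher and 3 lower, where 2.79% of all genes were called higher and 1.47% lower. The median log2 fold change of these 41 was -0.023. None of the downstream enzymes of the branches was called by edgeR or DESeq2; limma-voom called Oxct1, and Oxct1 alone of them had an unadjusted p under 0.05. Among the tested genes at the end of the leucine branch, Auh and Acat1 had log2 fold changes of -0.027 and -0.060. Oxct1, which activates the ketone body acetoacetate, had 474, 421 and 457 CPM in NM1 KO replicates 1 to 3, against 363, 371 and 302 CPM in WT replicates 1 to 3 (log2 0.38 ± 0.12, adjusted p = 0.121). Oxct2a had 0 counts in every library.

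The 3 enzymes of the isoleucine branch and 5 of the valine branch had log2 fold changes between -0.26 and 0.21. The lowest were Hibch, which hydrolyses hydroxyisobutyryl-CoA (85.4 ± 10.8 CPM in NM1 KO and 102 ± 9.68 CPM in WT, adjusted p = 0.275), and Echs1, a short-chain enoyl-CoA hydratase (191 ± 18.6 CPM in NM1 KO and 226 ± 12.3 CPM in WT, adjusted p = 0.244). Acad8, the isobutyryl-CoA dehydrogenase, stood at -0.24 and Hsd17b10, a dehydrogenase of the isoleucine branch, at -0.22. The 6 genes of the propionyl-CoA branch, which feeds isoleucine and valine carbon to succinyl-CoA, lay between -0.25 (Mmab) and 0.19 (Mut), with Mmaa at -0.22. Of the enzymes shared with fatty acid oxidation, the thiolase Acaa2 stood at 0.40 (adjusted p = 0.221) and Ehhadh at -0.36 (adjusted p = 0.340), with overlapping groups. Of the electron acceptors of Ivd, Etfdh had 116, 116 and 109 CPM in NM1 KO replicates 1 to 3, against 99.7, 98.6 and 88.1 CPM in WT replicates 1 to 3 (log2 0.25 ± 0.097, adjusted p = 0.174), which do not overlap, while Etfa and Etfb stood at -0.017 and 0.052. In the complexes that share Dld, the pyruvate and oxoglutarate dehydrogenase subunits lay between -0.14 (Dlst) and 0.18 (Dlat), with Pdhb at -0.071 and Ogdh at -0.072. No tool of the 3 (edgeR, DESeq2, limma-voom) called any of these pyruvate and oxoglutarate dehydrogenase subunits, and 0 of them had an unadjusted p under 0.05.

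**Figure D3:**
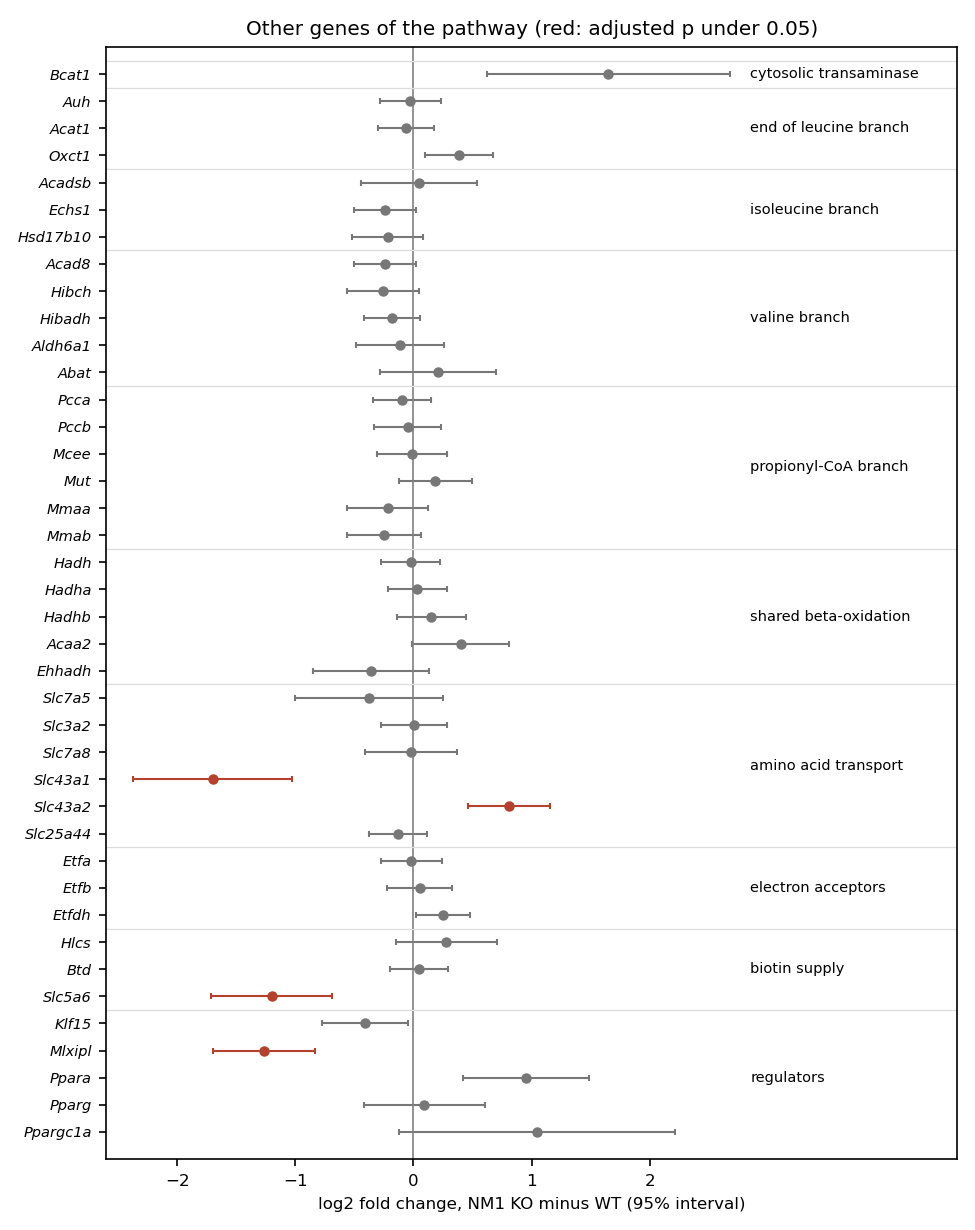
Log2 fold change (NM1 KO minus WT, with 95% intervals) of the tested genes of the wider pathway other than 1 that is not reported here, grouped by role from top to bottom; red marks an adjusted p under 0.05. The 4 called genes are Slc43a1, Slc43a2, Slc5a6 and Mlxipl, and the enzymes of the isoleucine and valine branches lie between -0.26 and 0.21.

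The called genes lay in transport and regulation. Slc43a1 and Slc43a2 are sodium-independent carriers of branched-chain and other large neutral amino acids, and they went opposite ways. Slc43a1 (chromosome 2, 84838850 to 84863594) had 13.9, 22.8 and 26.0 CPM in NM1 KO replicates 1 to 3, against 56.6, 90.4 and 56.3 CPM in WT replicates 1 to 3. It fell by 1.70 ± 0.29 on the log2 scale (adjusted p = 0.0304), and every NM1 KO library was below every WT library. Slc43a2 (chromosome 11, 75531694 to 75577575) had 164, 134 and 120 CPM in NM1 KO replicates 1 to 3, against 88.4, 70.2 and 80.2 CPM in WT replicates 1 to 3. It rose by 0.81 ± 0.15 (adjusted p = 0.0342), with every NM1 KO library above every WT library. Slc43a2 lies 72.9 kb from Myo1c, the targeted gene, and the part of that position in its rise was not tested. The heterodimer partners Slc7a5 and Slc3a2 and the mitochondrial carrier Slc25a44 had log2 fold changes of -0.38, 0.0048 and -0.13, with none called.

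Slc5a6, the carrier for biotin and pantothenate, had 23.0, 33.6 and 28.3 CPM in NM1 KO replicates 1 to 3, against 47.9, 68.5 and 79.1 CPM in WT replicates 1 to 3. It fell by 1.20 ± 0.22 (adjusted p = 0.0342), while Hlcs and Btd, which attach and recycle biotin, had log2 fold changes of 0.28 and 0.046 and were not called. Mlxipl, the carbohydrate-responsive factor ChREBP, known in rat liver to raise Bckdk and lower Ppm1k, had 42.8, 61.9 and 55.1 CPM in NM1 KO replicates 1 to 3, against 135, 103 and 146 CPM in WT replicates 1 to 3. It fell by 1.26 ± 0.18 (adjusted p = 0.0238). Klf15, a factor that drives genes of the pathway in mouse muscle, stood at -0.41 ± 0.16 with overlapping groups (adjusted p = 0.172). Ppara, a nuclear receptor of fatty acid oxidation, averaged 5.23 ± 0.611 CPM in NM1 KO and 2.71 ± 0.334 CPM in WT and was not called by edgeR (log2 0.95 ± 0.23, adjusted p = 0.0631), while DESeq2 and limma-voom called it higher. Pparg, the regulator of fat cell formation, stood at 0.090 ± 0.22.

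The calls of these 4 genes were lost on removal of some single libraries. Slc43a1 and Mlxipl lost theirs without any WT library or without NM1 KO replicate 3, and Slc43a2 and Slc5a6 without any library other than NM1 KO replicate 2. Over the 6 removals the adjusted p lay between 0.0371 and 0.0962 for Slc43a1, 0.0326 and 0.130 for Slc43a2, 0.0262 and 0.122 for Slc5a6, and 0.0173 and 0.0933 for Mlxipl. The log2 fold changes stayed between -1.88 and -1.44 for Slc43a1 and between 0.69 and 0.91 for Slc43a2. Those of Slc5a6 stayed between -1.38 and -1.05, and those of Mlxipl between -1.40 and -1.11. Over all genes, 673 calls became 37, 4 and 1 without WT replicates 1 to 3. They became 244, 1654 and 5 without NM1 KO replicates 1 to 3.

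**Figure D4:**
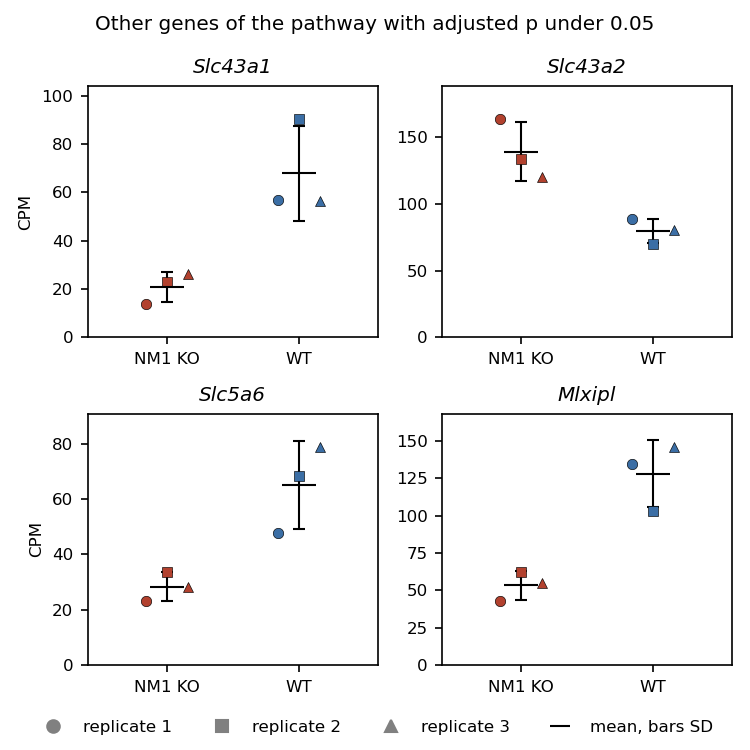
CPM of the 4 called genes of the wider pathway by library, with NM1 KO on the left and WT on the right; points are libraries, lines are means and bars are SD (n = 3 each), and each axis starts at 0. Slc43a1, Slc5a6 and Mlxipl are lower and Slc43a2 higher in every NM1 KO library than in any WT library.

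Bcat1, the cytosolic transaminase, which macrophages also use, stood opposite to Bcat2. It had 26.4, 24.1 and 19.0 CPM in NM1 KO replicates 1 to 3, against 8.73, 10.5 and 2.81 CPM in WT replicates 1 to 3. The groups did not overlap, and the log2 fold change was 1.65 ± 0.44 (adjusted p = 0.0811), so it was not called, although DESeq2 (adjusted p = 0.00182) and limma-voom (adjusted p = 0.0333) called it. In bulk tissue, fewer cells of a type and less RNA per cell cannot be told apart. Of 7 macrophage markers, 4 were called higher (Cd68, Adgre1, Trem2 and Lyz2) and none lower. The 7 summed to 3734 to 4977 CPM in NM1 KO and 1634 to 2275 CPM in WT. DESeq2 and limma-voom also called Mrc1 higher. Of 8 markers of fat cells, 7 had negative log2 fold changes with a median over the 8 of -0.27, and none was called by edgeR or limma-voom. DESeq2 called Lep higher and Cfd and Pnpla2 lower, the same 3 that had an unadjusted p under 0.05 with edgeR. Fabp4, the most abundant, stood at -0.13. The summed level of the fat cell markers was 21564 to 27191 CPM in NM1 KO and 27041 to 31581 CPM in WT. The 10 members summed to 1067 to 1115 CPM in NM1 KO and 1218 to 1388 CPM in WT. Of 7 endothelial markers, 5 were called lower (Egfl7, Eng, Emcn, Tie1 and Cdh5), and the 7 summed to 313 to 477 CPM in NM1 KO and 783 to 1011 CPM in WT. All 7 had an unadjusted p under 0.05 with edgeR, and DESeq2 and limma-voom called all 7 lower. Of 6 stromal markers, 3 were called higher (Pdgfra, Dpt and Lum), with sums over the 6 of 4115 to 4453 CPM in NM1 KO and 2345 to 3749 CPM in WT. DESeq2 and limma-voom also called Col1a1 higher. Dcn, the most abundant of them, stood at -0.018 and Pi16 at -0.43, with overlapping groups. Wt1 was the 1 of 5 mesothelial markers called, lower, and Cidea the 1 of 3 tested brown fat markers called, higher. DESeq2 also called the mesothelial marker Krt19 lower. No T cell, B cell, skeletal muscle or erythroid marker was called by edgeR, with unadjusted p under 0.05 for 0, 0, 1 and 3 of them; DESeq2 called Alas2 and Hba-a1 and limma-voom Alas2, erythroid markers, lower. Of 8 genes of mitochondrial content none was called with any of the 3 tools and 0 had an unadjusted p under 0.05, with Tomm20 at 0.23, Cs at -0.16 and a median of -0.073. No marker was at 0 in all 6 libraries, and the part of these cell types in the values of the members and of Bcat1 was not tested.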

How the data were processed

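Per the labels' protocols, RNA of visceral fat was made into libraries with the NEBNext Ultra II kit and sequenced on a NextSeq instrument. Per the submitters' processing notes, reads were handled with HTSeq, HISAT2 2.0.4, Trimmomatic 0.36, SAMtools 0.1.19 and FastQC, and the build was GRCm38 (mm10). Annotation and strand setting were not given in the sources used here. The authors deposited raw counts per Ensembl gene, 1 table per library, with 0 rows naming no gene. Of 46603 identifiers, 46091 matched GENCODE M21, which gave names, positions, exonic lengths and GC content of the longest transcript. No library pair within a group agreed within sampling noise (chi-square per degree of freedom of at least 38.8).

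Groups follow the genotype labels. The test was that of edgeR 4.0.16, run in R 4.3.3 (filterByExpr, TMM, robust quasi-likelihood fit, genotype only, two-sided, Benjamini-Hochberg over all 15828 genes). SE is the log2 fold change over the square root of F, and 95% intervals use the fit's degrees of freedom. TPM was computed from the counts. On simulated counts for this comparison (15560 genes, 200 changed), edgeR recovered 34.0% of 2-fold and 82.3% of 4-fold changes. The members and lists were chosen with earlier results of these data known. The naming rule took all 10 members, Myo1c, every called gene of the other lists, the 2 genes with the smallest p of each pathway group and the most abundant marker of each cell type. The most abundant markers of other cell types are covered by their counts, and a few genes outside the rule were named for their role after their values were seen. A result of 1 gene that the rule selects is not reported here. Alternatives were other size factors and filters, non-robust dispersion, a replicate block, DESeq2 1.42.0, limma-voom (limma 3.58.1), protein-coding genes only, a GC and length offset (natural splines, 5 degrees of freedom), with and without the block, and leaving out each library. Figures used matplotlib 3.10.9.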

Additional observations from a re-analysis of the deposited data

How the results depend on the processing

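Over all genes, 673 calls became 336 with the replicate block, 2198 with DESeq2, 1648 with limma-voom and 1 to 1654 when 1 library was left out. The count of members called was 1, against 0 with upper-quartile factors or the replicate block, 3 with DESeq2 or limma-voom and 0 to 1 without 1 library. Bckdhb stood at log2 -0.58 (adjusted p = 0.0520) with upper-quartile factors, at -0.55 (0.0596) with the block, and between -0.60 and -0.45 without 1 library; the other settings with all 6 libraries called it (adjusted p = 0.00292 to 0.0492). Bcat2 passed with DESeq2 (-0.49) and limma-voom (-0.53), as did Ivd (-0.45 and -0.48); without 1 library neither did, with adjusted p of 0.0511 to 0.205 and 0.0680 to 0.282. Signs near 0 turned with the GC and length correction, without and with the block, for Dbt (-0.080 and -0.077) and Dld (-0.10 and -0.10), and with upper-quartile factors for Mccc1 (-0.011). With the GC and length correction Mccc1 moved further, from 0.027 to -0.33 without and -0.33 with the block. The length used there was its 10952 exonic bases, where its principal transcript has 2455. Without 1 library, Dbt ranged from -0.069 to 0.19, Dld from -0.083 to 0.27, Ppm1k from -0.34 to 0.015 and Mccc1 from -0.026 to 0.069. Of the wider pathway, 1 gene was called higher, against 3 with DESeq2, 4 with limma-voom, 2 with the GC and length correction and 0 to 1 without 1 library; 3 were called lower, 0 to 3 without 1 library. Mlxipl lost its call with the block (adjusted p = 0.0562). The cause of these shifts was not tested. Deviations of same-numbered libraries correlated at r of -0.060, -0.035 and 0.19 for replicates 1 to 3, against -0.097 to 0.11 between numbers, so only the replicate 3 libraries correlated best with their own number, and the numbers were not taken to pair samples. Raw counts in place of length-scaled levels leave the log2 differences of the partner ratios the same by construction. On simulated counts most 2-fold changes were missed, so smaller ones were often not detectable, and Ppm1k had the fewest counts.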

Other observations

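The glycine cleavage system also uses Dld, and its other subunits did not move together. Gldc, the glycine decarboxylase, had 10.8, 6.71 and 8.45 CPM in NM1 KO replicates 1 to 3, against 4.40, 2.75 and 1.28 CPM in WT replicates 1 to 3 (log2 1.62 ± 0.43, adjusted p = 0.0826 by edgeR). Amt, the aminomethyltransferase, had 3.73, 5.04 and 4.70 CPM in NM1 KO replicates 1 to 3, against 10.3, 6.04 and 8.29 CPM in WT replicates 1 to 3 (log2 -0.87 ± 0.25, adjusted p = 0.0982). Gcsh, the lipoate-carrying protein, had a log2 fold change of 0.24 ± 0.14. The groups did not overlap for Gldc or Amt, in opposite directions, and neither was called by edgeR, while DESeq2 and limma-voom called both.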
